A study of Mus musculus with 5 samples.

Results

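Tnni1, the gene for slow skeletal troponin I, was followed through all RNA-seq libraries of a study of *Celf1* knock-out hearts, where it is gene number 912, 1 of 28416 numbered genes. Its name comes from the study's list of genes changed with age, matched to the number by level, and its fall between the ages studied was known when it was chosen. Its levels at these ages are therefore a description without a test, while the difference between genotypes, which played no part in the choice, was tested. Celf1 is an RNA binding protein with roles in splicing, mRNA stability and translation, and the study asked how its absence changes the neonatal heart. Ventricles freed of blood and atria came from male mice of a mixed strain, labelled 129v/BL6, with 2 *Celf1* -/- and 2 *Celf1* +/+ libraries at postnatal day 3 (PN3) and 1 *Celf1* +/+ library at PN38. The knock-out was constitutive, so that every cell type of the ventricle lacked the gene. The sources used here do not say how many animals entered a library, and p-values measure only the spread between these libraries. There was no *Celf1* -/- library at PN38 among those analysed, and the age comparison rests on *Celf1* +/+ mice alone.

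Troponin I is the inhibitory subunit of the troponin complex, which sits on the thin filament with troponin C, the calcium sensor, and troponin T, the anchor to tropomyosin. At low calcium it keeps myosin from cycling on actin, and the inhibition is released when calcium binds to troponin C. Separate genes encode a slow skeletal, a fast skeletal and a cardiac form. The slow skeletal form is the main troponin I of the fetal and newborn heart and is replaced by the cardiac form, Tnni3, as the heart matures, while slow-twitch skeletal muscle keeps it in the adult.

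The mouse gene lies on chromosome 1 of mm9, plus strand, between 137679642 and 137707566, where GENCODE annotates a protein coding gene with 8 transcripts, and no other annotated gene overlaps it. Its first listed transcript, Tnni1-001, spans 137695979 to 137707566 in 10 exons, 7 of which hold coding sequence. The spliced transcript has 1105 bases, made of 162 bases of 5′UTR, 564 coding bases and 379 bases of 3′UTR. Short stretches of the promoter and of the 3′UTR are given, the first because muscle genes are often read from E-boxes and the second because Celf1 binds GU rich RNA. In the promoter stretch, chr1:137695918-137695947, capitals mark the E-box CAGCTG, which begins 68 bases before the more upstream of the 2 transcript starts that RefSeq lists. In the stretch of the 3′UTR with the highest share of G and T over 30 bases, chr1:137707188-137707217, capitals mark the triplet TGT. Both are on the plus strand of mm9, written 5′ to 3′, and the promoter was taken from the RefSeq promoter set of GRCm38.p6 and placed on mm9 by exact match.
Tnni1 promoter: gggaaggaggggCAGCTGgaggggcagcgg
Tnni1 3′UTR: aggttggcttgcTGTatgacactcTGTGTc

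From 250 bases before to 50 bases after that start, the Tnni1 promoter held 4 matches to the general E-box CANNTG, a motif found in 72.3% of 32851 RefSeq promoters of that length. The form CAGCTG, counted among these 4, occurred in 16.3% of promoters. Neither TATAAA, the TATA box, nor the core of the MEF2 site, CTA and TAG with 4 bases between, was in this window, and 13.6% and 3.69% of promoters held them. Promoters were searched on both strands. The 3′UTR of Tnni1 was shorter than the median over genes, 893 bases, and 48.5% of its bases were G or T, against a median of 50.9%. It held no TGTTTGT and no TGTGTGT on the transcribed strand, letters found in 22.9% and 25.8% of the 3′UTRs of 19915 genes. Its 2 matches each to the shorter TGTT and TGTG were of a kind that 86.8% and 87.4% of 3′UTRs share. A longer 3′UTR has more places for such letters, and lengths were not matched. These letter matches describe the sequence alone, since binding was not measured in the data used here.

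In newborn mice Tnni1 was among the most abundant mRNAs of the ventricle in both genotypes, and at PN38 it was close to absent. At PN3 *Celf1* +/+ replicate 1 held 1607 FPKM and replicate 2 held 2021 FPKM. The *Celf1* -/- replicates held 1662 and 1509 FPKM, and the PN38 library 0.16 FPKM. FPKM divide fragments by transcript length and by library size, so that levels of genes of unequal length can be set side by side. The *Celf1* -/- values overlapped the *Celf1* +/+ values at PN3, whereas every PN3 library lay far above the PN38 library. In bulk tissue, fewer cells of a type and less RNA per cell cannot be told apart.

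**Figure D1:**
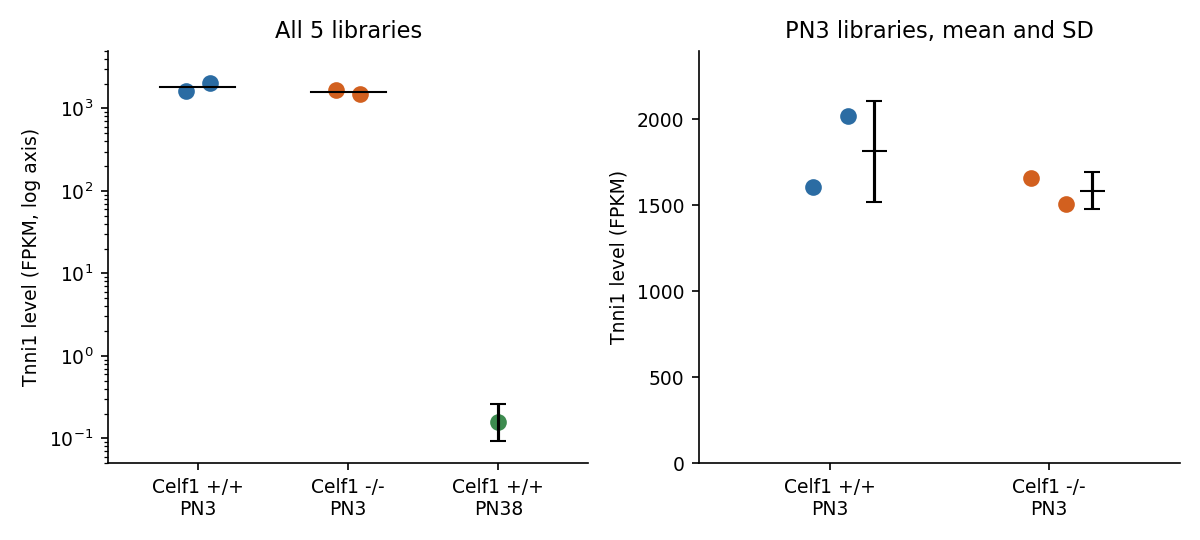
Tnni1 level in FPKM by genotype and age, on a log axis for all 5 libraries (left) and on a linear axis from 0 for the PN3 libraries (right). Each point is 1 library, horizontal lines are means, error bars at right are the SD (n = 2) and the bar at PN38 is the counting interval from 0.0927 to 0.263 FPKM, and the 4 PN3 libraries sit between 1509 and 2021 FPKM.

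The rank of Tnni1 among all 28416 genes shows the same step. By FPKM its rank was 33 and 25 for *Celf1* +/+ and 27 and 34 for *Celf1* -/- at PN3, and 14481 at PN38. Ranks by TPM, which scales each library to the same total over genes, were equal at PN3 and 14459 at PN38. By expected count, the fragments that RSEM assigned to the gene, it ranked between 31 and 51 at PN3 and 15162 at PN38. Between 12381 and 12547 genes reached 1 FPKM in a PN3 library and 11883 did at PN38, so Tnni1 passed from the top of the expressed genes to below that level. At PN38 there were still 3488 genes with a count above 0 that lay below it.

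The counts behind these levels were large at PN3 and small at PN38. At PN3 RSEM assigned 187927 and 224126 expected counts to Tnni1 in *Celf1* +/+ and 201942 and 191071 in *Celf1* -/- ventricles, against 16 at PN38. These were 0.145%, 0.183%, 0.151% and 0.137% of all counts at PN3 in the same order, and 1.5e-05% at PN38. The count of 16 has an exact Poisson 95% interval of 9.15 to 26.0, which corresponds to 0.0927 to 0.263 FPKM and covers counting error only. Totals lay between 108044284 and 139769909 counts per library, so the PN38 value is not set by a shallow library. Fragments were thus assigned to Tnni1 at PN38, and whether they reflect expression at that age was not tested. In TPM the PN3 levels were 2635 and 3390 for *Celf1* +/+ and 2720 and 2501 for *Celf1* -/-, and the PN38 level was 0.23. The length that RSEM gave the gene was 1080 to 1081 bases in the PN3 libraries and 1083 bases at PN38, so that the scale per length was the same at both ages.

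The first comparison asked whether the neonatal level of Tnni1 depends on Celf1. The label check came first: at PN3 Celf1 mRNA stood at 58.4 and 57.8 FPKM with the intact gene and at 2.61 and 3.03 FPKM in the knock-out, and at PN38 it stood at 28.4 FPKM. Tnni1 averaged 1814 ± 292 FPKM (SD, n = 2) in *Celf1* +/+ and 1585 ± 108 FPKM (SD, n = 2) in *Celf1* -/- ventricles, a ratio of 0.874. Fitted to the counts, the log2 fold change of *Celf1* -/- over *Celf1* +/+ was −0.17 (standard error 0.127), with a 95% interval from −0.49 to 0.15. As a fold, that interval runs from 0.711 to 1.11. By edgeR's quasi-likelihood test p was 0.237, and 0.452 after Benjamini-Hochberg adjustment over 12502 genes. The difference did not pass the test and was smaller than the spread between the *Celf1* +/+ replicates. A gene was called in this comparison at an adjusted p of 0.05 when its mean FPKM also differed by 1.5-fold or more, which 0.056% of genes did, 7 of 12502 (0.048% lower and 0.008% higher in *Celf1* -/-), and 23.6% of genes had an unadjusted p under 0.05. By p, 6568 genes ranked before Tnni1, and 59.0% of genes had a smaller log2 fold change in size.

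The estimate rested on which *Celf1* +/+ library was used. Without *Celf1* +/+ replicate 1 the log2 fold change was −0.31 (adjusted p = 0.203, edgeR's quasi-likelihood test), and without *Celf1* +/+ replicate 2 it was −0.01. Without *Celf1* -/- replicate 1 it was −0.27 and without replicate 2 it was −0.08. None of these fits called the gene. The replicates of Tnni1 differed by 1.26-fold in *Celf1* +/+ ventricles, more than 781 of the 822 genes with a mean of at least 100 FPKM there. They differed by 1.10-fold in *Celf1* -/- ventricles, more than 70.6% of 821 such genes. Over all 4 PN3 libraries Tnni1 averaged 1700 ± 223 FPKM (SD, n = 4), a coefficient of variation of 13.1%, and the highest library was 1.34 times the lowest.

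Markers of other cell types were set beside the genotype difference of Tnni1. The summed level of 6 atrial marker genes was 901 and 1437 FPKM for *Celf1* +/+ and 2625 and 3059 FPKM for *Celf1* -/- at PN3, and was 971 FPKM at PN38. Without Nppa the sums of the other 5 were 342 and 984 FPKM for *Celf1* +/+ and 768 and 1296 FPKM for *Celf1* -/-, which overlap. Nppa, the atrial natriuretic peptide, which ventricles also make under load, was the only listed gene called between genotypes, from 559 and 453 FPKM in *Celf1* +/+ to 1857 and 1763 FPKM in *Celf1* -/- ventricles (adjusted p = 0.0465, edgeR's quasi-likelihood test). The call was lost when genes were filtered by edgeR's own rule. The other 5 markers were not called, and the genotypes overlapped for 4 of them, Myl4, Myl7, Sln and Mybphl, but not for Bmp10. Over all genes tested, the genotypes did not overlap for 57.1%. Nppa and Bmp10 were named from the study's list of genes changed between genotypes. Their genotype values, and the sum of the 6 markers, are therefore not independent evidence. Myl7, the atrial regulatory light chain, was at 181 and 539 FPKM with Celf1 and at 416 and 665 FPKM without it. The *Celf1* +/+ replicate with the lower Tnni1 had the lower Myl7, while the *Celf1* -/- replicate with the lower Tnni1 had the higher Myl7. The 4 named blood genes summed to 7485 and 7220 FPKM in *Celf1* +/+ libraries, against 2295 and 4899 FPKM in *Celf1* -/- libraries. All 4 were named from the study's list of genes changed between genotypes. None was called by edgeR's quasi-likelihood test, with 3 at an unadjusted p under 0.05, against 23.6% of all genes tested. Without *Celf1* -/- replicate 2 all 4 were called lower, and the beta globin Hbb-b1 was also called lower without *Celf1* -/- replicate 1, by DESeq2 and by edgeR's exact test. Their part in the comparison of Tnni1 was not tested.

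The second comparison followed Tnni1 through postnatal development. The mean *Celf1* +/+ level at PN3 was 11337 times the PN38 level on the FPKM scale, with a counting interval from 6888 to 19568 that leaves out the spread between animals, since PN38 had 1 library. The ratio was 13098 in TPM, 8153 on counts normalized by TMM (edgeR's scaling by a trimmed mean of ratios) and 8034 on counts over DESeq2's size factors. As log2 differences of PN38 minus PN3 these were −13.47 in FPKM, −13.68 in TPM and −12.99 on TMM counts. The scales are centred differently, and over the 12816 genes tested the median log2 ratio of PN38 to PN3 was −0.46 in FPKM and −0.02 on TMM counts. On TMM counts Tnni1 had the lowest log2 fold change of all 12816 genes, and the next was −12.68. By the ratio of FPKM its place was 10 from the bottom, after 9 genes listed at 0 at PN38.

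No other gene as abundant at PN3 dropped below 1 FPKM at PN38. At 1000 FPKM or more in both *Celf1* +/+ libraries at PN3 there were 62 genes, and the 61 others all measured at least 579 FPKM at PN38. Their levels at PN38 were at least 0.179 of those at PN3, the lowest being Eef1a1, a translation elongation factor. The median ratio of PN38 to PN3 over the 62 genes was 1.29, and 59 of them kept a ratio of at least 0.5. At 100 FPKM or more there were 778 genes, of which 3 were below 1 FPKM at PN38. Beside Tnni1 these were a pair of features known by clone accessions only, which were also near 0 in *Celf1* -/- replicate 1 at PN3, at 0.17 and 0 FPKM, against 790 and 470 FPKM in replicate 2. Tnni1 showed no such gap between replicates.

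**Figure D2:**
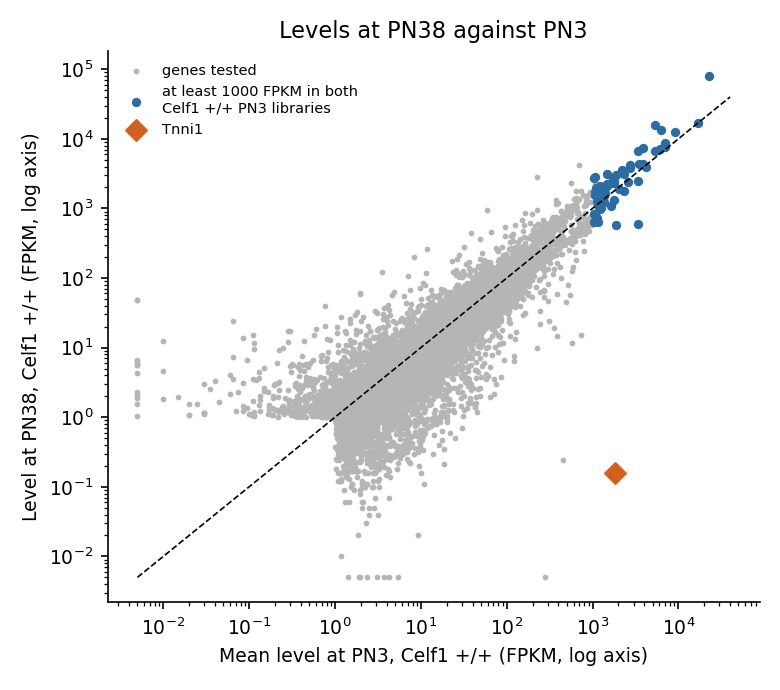
Level at PN38 against the mean level at PN3 in *Celf1* +/+ ventricles, both in FPKM on log axes, for the 12816 genes tested, with genes at 0 drawn along the lowest row or the left edge and equal levels on the dashed line. Blue points are genes that reached 1000 FPKM in each PN3 library, and Tnni1 lies alone at 1814 FPKM at PN3 and 0.16 FPKM at PN38.

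The other sarcomere genes were read from lists of troponin subunits, thin filament, thick filament, calcium handling and regulators. The study's supplementary lists of changed genes give names to 2634 of the 28416 numbered genes, and a listed gene without a name there, Tnni3 and Tnni2 included, was not analysed here. A gene named from the age list was picked by the study as lower at PN38 in these libraries, so its fall is not independent evidence. The same holds for the genotype of a gene named from the genotype list. For age, a gene was called at an adjusted p of 0.05 when its FPKM also differed by 2.0-fold or more. Of the genes tested, 29.7% were called, 22.4% lower and 7.33% higher at PN38. With the fold taken from TMM counts, 11.4% were lower and 12.8% were higher.

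Of 8 troponin subunit genes, Tnni1 and Tnnt1 were named. Tnnt1, slow skeletal troponin T, is the partner of Tnni1 in slow muscle fibres. Its PN3 levels were 38.2 and 40.7 FPKM for *Celf1* +/+ against 31.7 and 27.6 FPKM for *Celf1* -/-, and its PN38 level was 15.2 FPKM. On the FPKM scale it was therefore 2.59-fold lower at PN38 than in *Celf1* +/+ at PN3, far less than Tnni1 and from a far lower level. The log2 fold change of PN38 over PN3 was −0.92 (adjusted p = 0.0026, edgeR's quasi-likelihood test). Named from both lists, Tnnt1 was called on FPKM but missed the fold threshold on TMM counts. Between genotypes the difference was −0.39 on the log2 scale, with a standard error of 0.0987 (adjusted p = 0.134, edgeR's quasi-likelihood test). It was not called, although its unadjusted p was 0.0099 and the genotypes did not overlap, as for 57.1% of all genes tested.

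Of 14 thin filament genes, 4 were named, all from the genotype list, so that age played no part in their naming. They are smooth muscle actin Acta2 and the tropomyosins Tpm2, Tpm3 and Tpm4, which lie along actin and carry the troponin complex. None was called for age. Their median log2 ratio of PN38 to PN3 was −0.36 in FPKM, against −0.46 over all genes, and −0.05 on TMM counts, against −0.02. Tpm3, which includes the slow muscle tropomyosin among its products, had the lowest ratio of PN38 to PN3, at 0.535. It measured 89.9 and 81.2 FPKM in *Celf1* +/+ libraries at PN3 and 45.8 FPKM at PN38. By edgeR's quasi-likelihood test none was called for genotype, while 3 were at an unadjusted p under 0.05, each higher in *Celf1* -/-. Of all genes tested, 23.6% were under 0.05, and these 3 were named from the genotype list. Acta2, at 420 and 413 FPKM with Celf1 and at 601 and 653 FPKM without it, was called higher by DESeq2 and by edgeR's exact test. Its adjusted p in edgeR's quasi-likelihood test was 0.0765.

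Of 23 thick filament genes, 6 were named. The 5 from the age list were called lower at PN38, and Myl1, named from the genotype list, was called higher. Myh7, the slow and fetal myosin heavy chain, reached 456 and 699 FPKM for *Celf1* +/+ at PN3, 1039 and 531 FPKM for *Celf1* -/-, and 11.8 FPKM at PN38. That is a 48.8-fold lower FPKM at PN38 (log2 fold change −5.29, standard error 0.611, adjusted p = 0.0014, edgeR's quasi-likelihood test). Every PN3 library lay above the PN38 library and the genotypes overlapped, as for Tnni1, but Myh7 remained detectable at a level that Tnni1 did not keep. Among the rest, the atrial light chains Myl7 and Myl4 were 18.6-fold and 7.26-fold lower, the myosin binding protein Mybphl 9.73-fold and the heavy chain Myh7b 2.37-fold, the last not past the fold threshold on TMM counts. Myl4, Myl7 and Mybphl are also atrial markers. Myl1, a light chain of fast muscle, measured 7.19 and 13.0 FPKM in *Celf1* +/+ libraries at PN3 and 49.9 FPKM at PN38 (log2 fold change 2.80, adjusted p = 0.011, edgeR's quasi-likelihood test). No thick filament gene was called for genotype by edgeR's quasi-likelihood test, nor was any at an unadjusted p under 0.05, and DESeq2 called 0 as well.

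Of 13 calcium handling genes, 6 were named. Cacna1g and Cacna1h came from both lists, Sln from the age list, and Casq1, Ryr2 and Slc8a1 from the genotype list. The values of Cacna1g and Cacna1h are thus not independent evidence in either comparison. Cacna1g and Cacna1h, which form T-type calcium channels of the fetal heart, were called lower at PN38. Cacna1g went from 22.5 and 28.8 FPKM for *Celf1* +/+ at PN3 to 5.17 FPKM at PN38, with 15.8 and 14.1 FPKM in the PN3 knock-out. Casq1, a calcium store protein of skeletal muscle, was called higher, from 20.3 and 13.9 FPKM in *Celf1* +/+ libraries at PN3 to 43.1 FPKM. Sln, Ryr2 and Slc8a1 were not called. Sarcolipin, Sln, which restrains the calcium pump of the atrium, spanned 17.7 to 132 FPKM over the PN3 libraries and was at 5.47 FPKM at PN38 (adjusted p = 0.084, edgeR's quasi-likelihood test). Leaving out *Celf1* +/+ replicate 1 brought Sln among the lower genes, and leaving out replicate 2 did so for the sodium-calcium exchanger Slc8a1. None of the 6 was called for genotype by edgeR's quasi-likelihood test, while DESeq2 and edgeR's exact test called Cacna1g lower in *Celf1* -/-. In the quasi-likelihood test 3 had an unadjusted p under 0.05, as did 23.6% of all genes tested. Of these 3, Ryr2 and Cacna1g were lower in *Celf1* -/- and Slc8a1 was higher. Without *Celf1* +/+ replicate 1, Cacna1g was called lower and Slc8a1 higher.

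**Figure D3:**
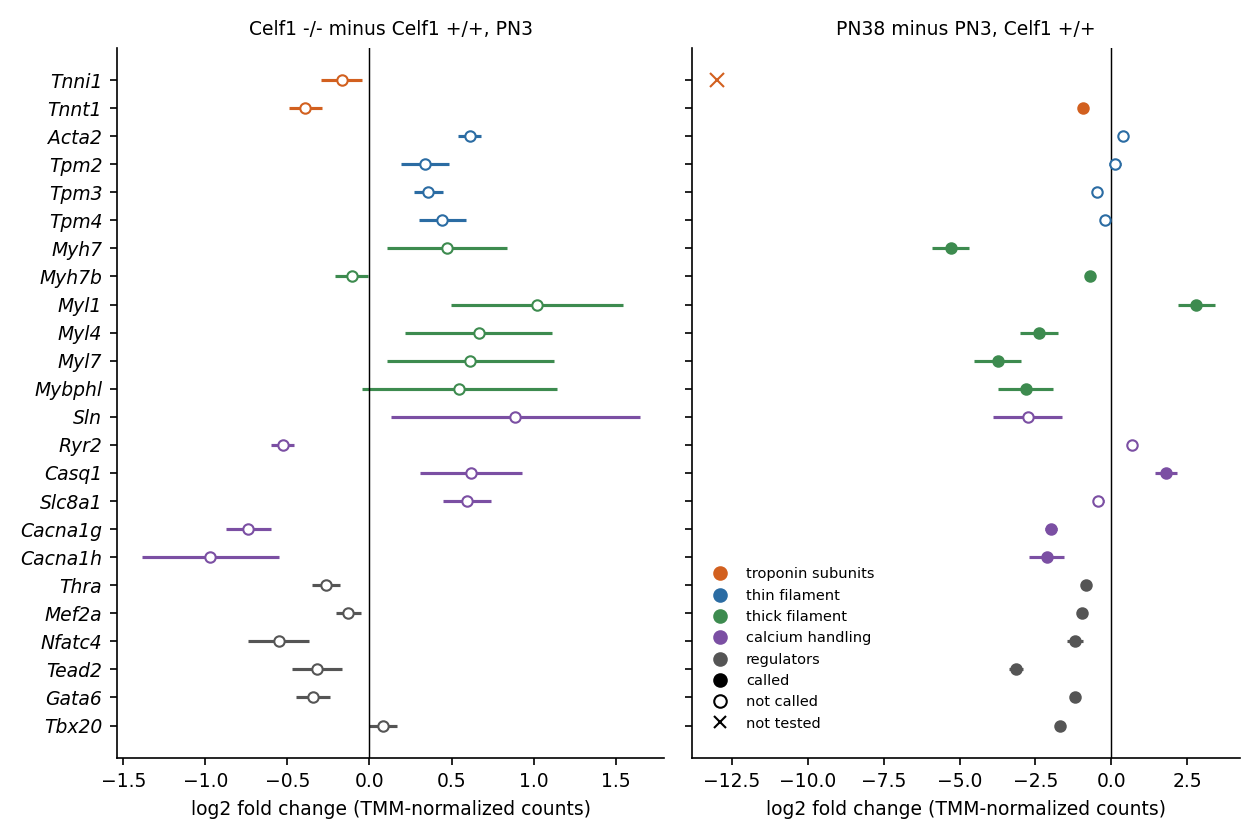
Log2 fold change on TMM-normalized counts of Tnni1 and the named sarcomere, calcium handling and regulator genes between genotypes at PN3 (left) and between ages in *Celf1* +/+ (right). Bars are standard errors, filled points are called and open points are not. The cross, labelled as not tested, marks Tnni1 for age, which was in the fit but is shown without its test result. At −12.99 it lies below every other gene shown, the next being Myh7 at −5.29.

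Of 20 regulator genes, transcription factors of cardiac and slow muscle genes, 6 were named, all from the age list, and all 6 were called lower at PN38. Thra, the receptor that reads thyroid hormone, went from 113 and 131 FPKM for *Celf1* +/+ at PN3 to 49.7 FPKM at PN38, with 101 and 99.7 FPKM in the PN3 knock-out. Tead2, a factor of the Hippo pathway that binds the MCAT element of muscle promoters, was 12.1-fold lower at PN38. Tbx20 and Gata6, heart developmental factors, were 4.41-fold and 3.12-fold lower, Mef2a 2.76-fold and Nfatc4, which responds to calcineurin, 2.36-fold. Thra and Mef2a missed the fold threshold on TMM counts. The median log2 ratio of the regulators was −1.55 in FPKM, compared with −3.07 for thick filament and −1.62 for calcium handling genes, and no regulator came near the difference seen for Tnni1. For genotype none was called by edgeR's quasi-likelihood test and none by DESeq2. In the quasi-likelihood test 3 were at an unadjusted p under 0.05, each lower in *Celf1* -/-, against 23.6% of all genes tested. In medians of the log2 ratio of FPKM between genotypes, regulators stood at −0.32, calcium handling at 0.01, thin filament at 0.38 and thick filament at 0.56, against −0.02 over all genes. The thin filament genes were all named from the genotype list, as were the calcium handling genes except Sln, so neither median is independent evidence. The calcium handling median lies between genes that differed in both directions, from −0.99 for Cacna1h to 0.86 for Sln. The genotypes overlapped for every named thick filament gene.

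Slow skeletal muscle also makes Tnni1, and markers of other tissues were set beside its fall. Of 17 skeletal muscle markers, Casq1 and Myl1 were named, with a summed level of 27.4 and 26.8 FPKM for *Celf1* +/+ at PN3, 60.9 and 30.3 FPKM for *Celf1* -/-, and 93.0 FPKM at PN38. Both markers were higher at PN38, where Tnni1 was near 0, and their highest PN3 sum was in a library whose Tnni1 level was 1662 FPKM. Both were named from the genotype list. Myl1 is a light chain of fast muscle, and the part of slow skeletal muscle was not tested. Defining markers such as Myod1 and Myh4 were not analysed here. Of 9 ventricular markers, Myh7 alone was named, itself a gene of the newborn ventricle, so the labelled tissue could be checked on that gene only. Of the atrial markers, Myl4, Myl7 and Mybphl were called lower at PN38, and *Celf1* +/+ replicate 1 had their lowest values at PN3. Nppa went the other way, to 912 FPKM at PN38 (log2 fold change 1.30, adjusted p = 0.0014, edgeR's quasi-likelihood test), short of the fold threshold on FPKM and called higher with the fold from TMM counts. The 3 named fibroblast genes, the collagens Col1a1 and Col3a1 and periostin, Postn, fell at PN38 from a summed 1252 and 1445 FPKM to 225 FPKM, and all 3 were named from the age list. The part of these cell types in the fall of Tnni1 was not tested, and no endothelial marker was named.

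Genes around Tnni1 did not share the size of its fall. Of 20 annotated protein coding genes within 500 kb in mm9, 6 were named, Lad1 at 7.61 kb after the gene and Phlda3, Csrp1, Nav1, Ipo9 and Shisa4 at 13.9 to 408 kb before it. Of all genes tested, 22.4% were called lower at PN38 on FPKM and 11.4% with the fold from TMM counts. All 6 named neighbours were called lower on FPKM, with log2 ratios from −1.97 to −1.14, and 4 of them were named from the age list. The other 2 were Csrp1 and Phlda3. Csrp1, a LIM domain protein of smooth muscle, measured 108 and 104 FPKM in *Celf1* +/+ libraries at PN3 and 48.1 FPKM at PN38. On TMM counts the log2 fold changes of the 6 lay between −1.43 and −0.70, and Shisa4, Csrp1 and Phlda3 missed the fold threshold, so that neither gene named without regard to age kept its call. None was called for genotype. Csrp1, named like Phlda3 and Lad1 from the genotype list, had the lowest adjusted p, 0.088 in edgeR's quasi-likelihood test. Named or not, 11 of the 20 genes numbered nearest to Tnni1 reached 1 FPKM in both *Celf1* +/+ libraries at PN3, of which 8 lay below and 3 above both of these libraries in FPKM at PN38, with a lowest ratio of 0.256. Over all genes at that level, 72.4% lay below and 23.1% above both libraries. The gene numbered 914, left unnamed here, measured 6361 and 7469 FPKM in *Celf1* +/+ libraries at PN3 and 7738 FPKM at PN38.

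Genes with the pattern most like Tnni1 were ranked by the root mean square difference of log2(FPKM + 1) over the 5 libraries, after each gene's own mean was taken away. Among 12533 genes with a mean of at least 1 FPKM, the nearest were Myh7 at 1.98 log2 units, H19 at 2.02, Igf2 at 2.33, Rrm2 at 2.41 and Plagl1 at 2.44. These differences are large because no gene had a step as wide as that of Tnni1. H19, an imprinted non-coding RNA of fetal tissues, was at 648 and 803 FPKM for *Celf1* +/+ at PN3, at 653 and 786 FPKM for *Celf1* -/-, and at 15.2 FPKM at PN38. Igf2, its imprinted neighbour and a fetal growth factor, lay between 359 and 437 FPKM at PN3 and at 14.6 FPKM at PN38. Rrm2, the small subunit of ribonucleotide reductase, used in DNA synthesis, went from a range of 55.4 to 72.4 FPKM at PN3 to 1.97 FPKM. Plagl1, an imprinted zinc finger factor, went from a range of 57.6 to 82.1 FPKM to 2.15 FPKM. Pearson's r with Tnni1 on the same scale lay between 0.986 and 0.998 for these genes (n = 5 libraries), and in each case the single PN38 library sets it. Myh7 and H19 stayed among the nearest 5 with a pseudocount of 0.1 in place of 1 and on TMM counts, while the other 3 did not.

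**Figure D4:**
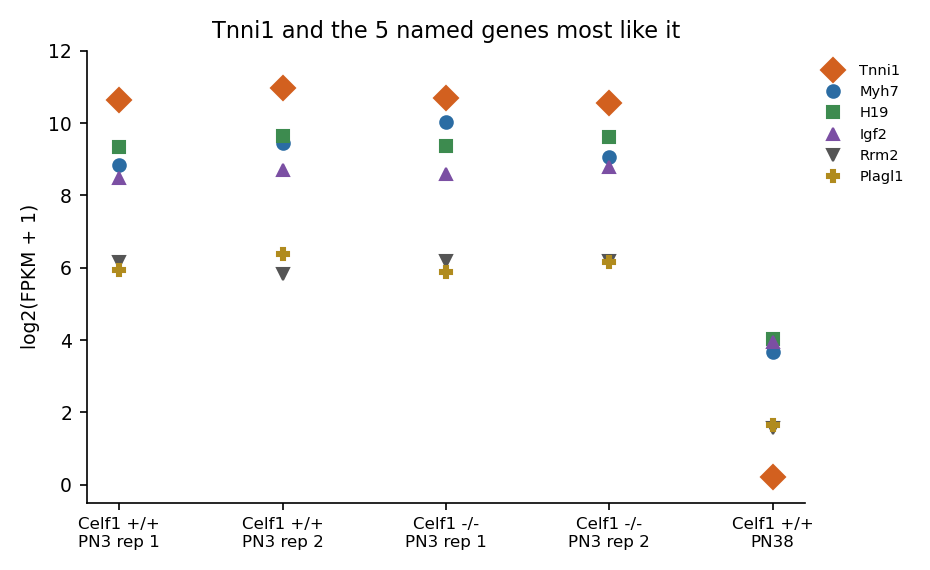
Log2(FPKM + 1) in each of the 5 libraries for Tnni1 and the 5 named genes nearest to it, 1 marker per gene and library. All 6 genes are high in the 4 PN3 libraries and low in the PN38 library, and Tnni1 is the highest of them in every PN3 library and the lowest at PN38.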

How the data were processed

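RNA was measured in 5 ventricle libraries. According to the labels and methods, the authors aligned paired-end reads to mm9 with TopHat2 and estimated gene levels with RSEM 1.2.4. The deposited expected counts are fragments assigned to each gene without normalization, with fragments that fit several genes split between them. The deposited FPKM and TPM values are scaled to effective length and library, by the authors. The methods name Ensembl models, whereas the deposited tables list UCSC transcripts under numbered genes. Names come from the study's supplementary lists by exact match of FPKM, for 961 of 961 rows of the genotype list and 1995 of 1998 rows read of the age list, which was held in part. The fold changes and p-values in those lists were not used. Per the methods, littermates served for genotype comparisons, and the litter of each library is not given in the sources used here. Tnni1 and the gene lists were chosen with earlier results of these data known.

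Expected counts were rounded and tested with edgeR 4.0.16 (R 4.3.3), using TMM, glmQLFit, glmQLFTest and Benjamini-Hochberg adjustment. The genotype fit held the 4 PN3 libraries and genes whose FPKM reached 1 in both libraries of either genotype. The age fit held all 5 libraries in 3 groups, so that the single PN38 library took its spread from PN3, and genes whose FPKM reached 1 at PN38, or else in each of the PN3 *Celf1* +/+ libraries. The text names Tnni1, every listed gene that has a name and passed the filter, the 5 nearest genes in pattern, Celf1, and named genes within 500 kb. Eef1a1 was named after its value was seen. Positions and 3′UTRs are from GENCODE vM1 (mm9), by gene name. As alternatives, the exact test of edgeR, DESeq2 1.42.0, a replicate block, and other scalings, filters and sets of libraries were tried. Intervals of counts are exact Poisson and cover counting error only.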

Additional observations from a re-analysis of the deposited data

How the results depend on the processing

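The genotype difference of Tnni1 stayed between −0.16 and −0.17 log2 units under DESeq2, edgeR's exact test, upper quartile scaling, both other filters and all 5 libraries, and between −0.31 and −0.01 with each library left out in turn. It was called under none of these. With the replicate number as a block it was −0.16. Deviations of same-numbered libraries from their group means correlated at 0.22 across genes. With 2 libraries per genotype, swapping the numbers in either genotype would only flip the sign. The value therefore cannot tell whether the numbers follow litters. Littermates were used, but the sources do not tie the numbers to litters. The block called 6 genes in place of 7. The number of genes called between genotypes was less steady: 366 by DESeq2, 342 by the exact test, 16 without a filter, 2 with edgeR's own filter and 26 with all 5 libraries. It ran from 4, without *Celf1* +/+ replicate 2, to 166, without *Celf1* +/+ replicate 1, with 20 and 49 without *Celf1* -/- replicates 1 and 2. The cause was not tested. Among listed genes DESeq2 called 1 thin filament gene, 1 calcium handling gene and 1 blood gene where the quasi-likelihood test called 0.

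The log2 difference of Tnni1 between ages was −12.99 on TMM-scaled counts and −12.97 on DESeq2's size factors, and ran from −13.62 to −13.29 with either *Celf1* +/+ library left out. Genes called for age numbered 3807, from 3549 to 3891 with each PN3 library left out in turn. Without a filter 4947 genes were called for age. With the fold from TMM counts 3106 were called, 1464 lower and 1642 higher, against 2867 lower and 940 higher with the fold from FPKM. On TMM counts the median log2 ratio for age was −0.047 for thin filament, −1.21 for calcium handling and −1.19 for regulators, and −0.92 for Tnnt1. Of the 5 genes most like Tnni1, 2 remained with a pseudocount of 0.1 and 2 on TMM counts. None of the log2 differences and medians changed sign under the alternatives run, while the balance of genes called lower and higher at PN38 did change. A single PN38 library gives no spread between animals at that age, and 2 libraries per genotype leave a fold for Tnni1 at PN3 between 0.711 and 1.11.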
